A study of Mus musculus with 36 samples.

Results

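Transcription start sites (TSS) held 583 of the 3216 peaks in mouse liver at which the circadian transcription factor CLOCK:BMAL1 binds and H2A.Z was profiled (18.1%). These 583 TSS peaks were taken by the class of genomic location that the deposited peak list gives each region, and their nucleosomes by the profiles averaged over that class. The measurement was H2A.Z, a histone variant, on mononucleosomes released by micrococcal nuclease and pulled down with an antibody. Livers came from adult C57BL/6 mice aged 3 to 6 months, housed in a cycle of 12 h light and 12 h dark, and were taken at 2, 6, 10, 14, 18 and 22 h after lights on (zeitgeber time, ZT). The wild-type group (WT) had 4 libraries at each time, 24 in all, numbered as series 11, 12, 25 and 26. The Bmal1-/- group (BM), whose mice lack BMAL1, had 1 library at each time, all of series 5. No value here measures Bmal1 itself, so the genotype labels went unchecked.

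H2A.Z replaces the common histone H2A in some nucleosomes, most of all in those that flank active promoters and enhancers. At an active start site a stretch poor in nucleosomes lies between a nucleosome upstream and an ordered row downstream. BMAL1 binds DNA together with CLOCK at E-box motifs, and the pair drives the clock's feedback loop and many rhythmic genes of the liver.

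Each profile was 1 mean over the 583 windows of 3 kb, given at positions about 10 bp apart, and each window was centred on the middle of its peak. The values are in the authors' scaled units and their depth is unknown, so levels between libraries rest on that scaling while shapes within a library do not. The mean over the window ran from 15.7 to 39.9 in WT (median 27.6) and from 13.5 to 26.6 in BM (median 20.6). The lowest libraries were BM at ZT22 (13.5), BM at ZT10 (15.2) and WT series 26 at ZT22 (15.7), and all others had at least 18.9. By their source names WT series 11 and 12 and BM series 5 form a first set of samples, and WT series 25 and 26 a second. No column gives the strand of the gene, and the sources used here do not say whether windows were turned to run with the gene. Left and right therefore mean lower and higher positions in the window.

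The TSS peaks carried H2A.Z on both sides of the CLOCK:BMAL1 site, with a dip at the site itself. In the WT mean profile the left shoulder stood at -220 bp with a signal of 51.5 and the right shoulder at 200 bp with 52.3. Between them the signal fell to its lowest point at -20 bp, and at the centre of the window it was 29.5 ± 6.74 (SD, n = 24). The BM mean profile had its shoulders at -220 bp (35.8) and 220 bp and its lowest point also at -20 bp, with 21.9 ± 6.87 (SD, n = 6) at the centre. Away from the site the signal declined to 11.2 ± 1.38 (SD, n = 24) at -1400 bp and 11.1 ± 1.34 (SD, n = 24) at 1400 bp in WT. It was 14.1 at -1200 bp and 13.6 at 1200 bp in WT, so the profile still sloped near the ends of the window and reached no plateau.

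**Figure D1:**
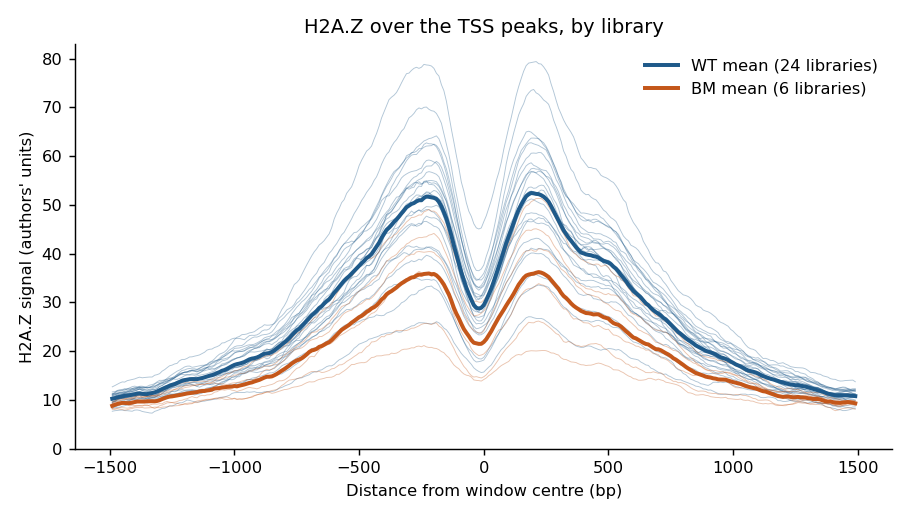
H2A.Z signal in the authors' scaled units (vertical axis, from 0) against distance from the window centre in bp, averaged over the 583 TSS peaks. Thin lines are the 24 WT (blue) and 6 BM (orange) libraries and thick lines the group means; every library has a pair of shoulders around a dip, and the WT mean has a step near 500 bp on the right.

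The domain of H2A.Z at TSS peaks was about 1.2 kb wide. The domain width is the distance between the outer points where the signal above flank falls to 50% of the shoulder height. Flank stands for the average over 25 positions at either end of the window, and shoulder for the average at 150 to 230 bp to either side of the centre. The domain was 1219 bp ± 35.7 (SD, n = 24) wide in WT, from 1133 bp to 1269 bp with a median of 1219 bp. In BM it was 1195 bp ± 32.5 (SD, n = 6), from 1141 bp to 1227 bp. The edges of the WT mean profile lay at -604 and 614 bp, so the domain was almost centred on the site.

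Other peak classes had narrower domains. In WT the domain width was 791 bp at the 1623 gene body peaks, 809 bp at the 717 intergenic peaks beyond 10 kb of a gene and 769 bp at intergenic peaks within 10 kb. The profile within 10 kb was solved from the other sets, the TSS set among them. Comparisons of TSS peaks with that class, here and below, are therefore not between separate measurements. The TSS domain was wider than these by 428 bp ± 28.7, 410 bp ± 30.7 and 450 bp ± 45.8 (SD of the difference within a library, n = 24 each). Each difference held in 24 of 24 WT libraries (two-sided permutation of signs, adjusted p = 1.57e-05, raw p = 1e-05, the smallest value 100000 permutations allow). The BM differences were 387, 427 and 443 bp, in 6 of 6 libraries each (exact two-sided permutation of signs, p = 0.03125, the smallest possible with 6 libraries, adjusted p = 0.0497). The classes were compared within each library, so no scale factor enters. The flank lies inside the 3 kb window, and with a flank of 50 positions the difference from gene bodies was 405 bp.

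The shoulders of the TSS peaks also stood further apart. Their spacing, from the left to the right maximum within 100 to 350 bp of the centre, was 430.4 bp ± 28.8 (SD, n = 24) in WT, from 390 to 500 bp. Gene body peaks had 370.0 bp ± 15.6 (SD, n = 24), and the TSS spacing was larger by 60.4 bp than theirs, by 55 bp than that of peaks beyond 10 kb and by 57.1 bp than that of peaks within 10 kb. Each difference held in 24 of 24 WT libraries (two-sided permutation of signs, adjusted p = 1.57e-05). The dip itself differed less: at 50% of its depth it was 194.6 bp ± 8.48 (SD, n = 24) wide at TSS peaks, larger than at gene body peaks by 6.61 bp ± 8.49 (SD, n = 24), in 18 of 24 libraries (permutation of signs, adjusted p = 0.00156). Against peaks beyond 10 kb the dip width differed by 0.137 bp (permutation of signs, adjusted p = 0.960).

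**Figure D2:**
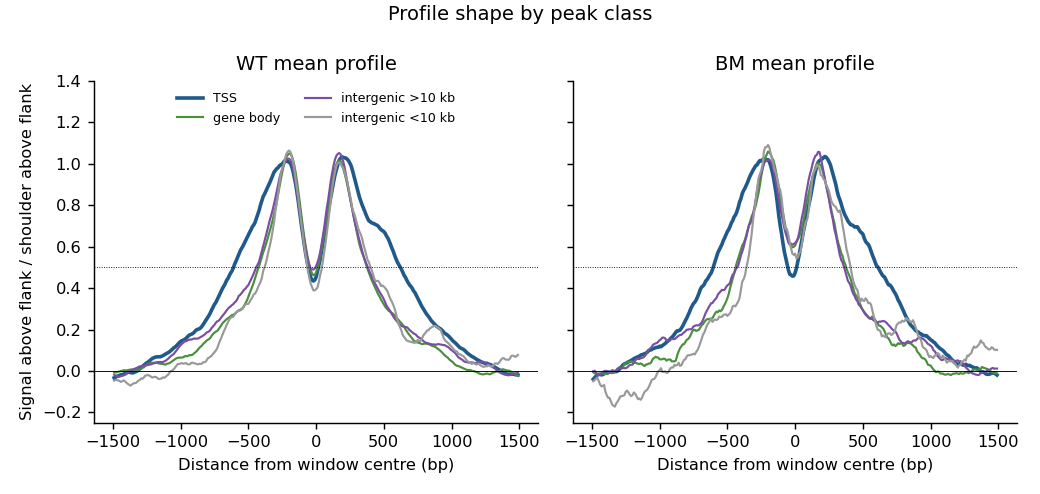
Mean WT profiles (left) and mean BM profiles (right) of 4 peak classes, as signal above flank divided by shoulder above flank (vertical axis, no unit) against distance from the window centre in bp; the dotted line marks 0.5, where the domain width is read. In both genotypes the TSS curve crosses the dotted line furthest from the centre, 1219 bp apart in WT on average over libraries against 791 bp for gene bodies.

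The shoulder spacing and the dip width of the TSS peaks differed between the sets of samples. In WT of the first set the spacing was 447.5 bp ± 28.3 (SD, n = 12), from 420 to 500 bp, and in WT of the second set 413 bp ± 17.2 (SD, n = 12), from 390 to 440 bp. The BM libraries, all of the first set, had 447 bp ± 29.4 (SD, n = 6), from 410 to 480 bp. The dip width likewise was 200.3 bp ± 4.97 (SD, n = 12) in WT of the first set, 188.9 bp ± 7.42 (SD, n = 12) in WT of the second and 202.3 bp ± 9.10 (SD, n = 6) in BM. The domain width was 1219 bp in WT of either set. By the labels 1 antibody lot served the whole first set, while in the second set each library has a lot number of its own and these numbers rise from sample to sample. The gaps between sets were not tested, and lot and set cannot be told apart.

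Beyond the shoulders, the right side of the TSS profile had a step about 500 bp from the site that was smaller or absent at the same distance on the left. On the right the WT mean signal was 40.7 ± 8.72 (SD, n = 24) at 380 bp and 38.2 ± 7.75 (SD, n = 24) at 500 bp, while on the left it went from 45.3 ± 10.3 (SD, n = 24) at -380 bp to 37.5 ± 7.90 (SD, n = 24) at -500 bp. The step was measured as an outer bump, the mean signal from 470 to 530 bp minus the average of the means from 350 to 410 bp and from 590 to 650 bp, relative to the height of the shoulder above flank. A straight slope gives 0. On the right the bump was 0.0467 ± 0.0172 (SD, n = 24) in WT, above 0 in 24 of 24 libraries (permutation of signs, adjusted p = 4.36e-05), from 0.0106 to 0.0834. In BM it was 0.0440 ± 0.0271 (SD, n = 6), above 0 in 6 of 6 (exact permutation of signs, p = 0.03125, adjusted p = 0.0455). On the left it was -0.0109 ± 0.0225 (SD, n = 24) in WT, above 0 in 4 of 24, and -0.000279 ± 0.0293 (SD, n = 6) in BM, above 0 in 2 of 6. Of those 4 WT libraries 3 were at ZT22. The left bump there was 0.0226 ± 0.0306 (SD, n = 4), against means from -0.0212 to -0.00926 at the other times. At ZT22 it was 0.0455 in WT series 12 and 0.04997 in series 26. These libraries had the lowest means over the window in WT (18.9 and 15.7). Series 11 and 25 had -0.0142 and 0.00903 at ZT22. In BM it was 0.0435 at ZT22 (window mean 13.5), -0.0132 at ZT10 (15.2) and 0.0239 at ZT2 (26.6). Whether low signal moves the left bump was not tested. The right bump exceeded the left by 0.0575 ± 0.0254 (SD, n = 24) in WT, in 23 of 24 libraries (permutation of signs, adjusted p = 4.36e-05), though by 0.0302 ± 0.0302 (SD, n = 4) at ZT22, and by 0.0443 ± 0.0225 (SD, n = 6) in BM, in 6 of 6 (exact permutation of signs, adjusted p = 0.0455). The left window mirrors the right one about the window centre, while the dip was lowest at -20 bp. With windows mirrored about -20 bp, a setting chosen after seeing the data, the WT excess kept its sign and its call. The windows are fixed, so a left step at another distance would be missed.

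Gene body peaks had a right bump of -0.0452 ± 0.0211 (SD, n = 24) in WT, above 0 in 0 of 24 libraries. The right edge of the domain lay at 372 bp there and at 374 bp beyond 10 kb, within the inner reference of the bump, against 615 bp at TSS peaks. A curved fall at that edge also moves the bump from 0, so the value does not show whether a step is absent. The part of domain width in these contrasts was not tested. The TSS bump was higher than that of gene bodies by 0.0918 in 24 of 24 WT libraries (permutation of signs, adjusted p = 1.57e-05). It was higher by 0.0705 than that of peaks beyond 10 kb, again in 24 of 24. Against peaks within 10 kb of a gene, whose bump was 0.0275 ± 0.0712 (SD, n = 24), the difference of 0.0192 did not pass the test (permutation of signs, adjusted p = 0.251). The excess of the right over the left bump was 0.0261 at gene body peaks, 0.0274 beyond 10 kb and 0.0782 within 10 kb, each above 0 on average in WT (permutation of signs, adjusted p from 0.00233 to 0.0173). The TSS excess was larger than that of gene bodies by 0.0314, in 18 of 24 WT libraries (permutation of signs, adjusted p = 0.00183). It was larger than that of peaks beyond 10 kb by 0.0301, in 19 of 24 (permutation of signs, adjusted p = 0.00264). Against peaks within 10 kb the difference of -0.0206 did not pass the test (permutation of signs, adjusted p = 0.472), and the TSS value was the higher one in 11 of 24 libraries.

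The whole right side of the TSS profile held slightly more H2A.Z than the left. As the log2 ratio of signal above flank, right over left, this side asymmetry was 0.04 ± 0.03 (SD, n = 24) in WT, above 0 in 23 of 24 libraries (permutation of signs, adjusted p = 4.36e-05). Gene body peaks leaned to the left, with -0.12 ± 0.06 (SD, n = 24), as did peaks beyond 10 kb, with -0.12 ± 0.07 (SD, n = 24). Peaks within 10 kb leaned to the right, with 0.29 ± 0.13 (SD, n = 24). The TSS value was above those of gene bodies and of peaks beyond 10 kb, and below that of peaks within 10 kb, in 24 of 24 WT libraries each (permutation of signs, adjusted p = 1.57e-05). In BM the TSS value was 0.02 ± 0.04 (SD, n = 6), above 0 in 4 of 6 libraries (exact permutation of signs, p = 0.4375, adjusted p = 0.50).

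The TSS peaks carried less H2A.Z signal in BM. The BM window signal was 26.6 at ZT2, 18.9 at ZT6, 15.2 at ZT10, 23.8 at ZT14, 22.3 at ZT18 and 13.5 at ZT22. At each of the 6 times this lay below all 4 WT libraries, although the ranges over all times overlap. The log2 difference of BM minus WT was -0.47 (SE 0.11, exact two-sided permutation within time, p = 0.000256, adjusted p = 0.00307). In the first set alone it was -0.33 (exact permutation within time, p = 0.00137, the smallest possible there, adjusted p = 0.0165). As 1 BM series was used, an effect of the series cannot be told apart from one of the genotype, and with the 5 series as the unit the exact permutation p was 0.2, the smallest possible. In an average over peaks of a whole tissue, less H2A.Z at each peak and H2A.Z at fewer peaks or in fewer cells cannot be told apart. The fall was not confined to TSS peaks. Mean log2 window signal was 4.75 in WT and 4.29 in BM at TSS peaks, and 3.72 and 3.37 at gene bodies. It was 4.18 and 3.64 beyond 10 kb, and 4.20 and 3.70 within 10 kb.

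The loss was larger near the site than far from it. The mean BM signal was 69.7% of WT at -200 bp, 68.6% at 200 bp and 69.9% at 500 bp, against 85.8% at -1400 bp and 86.4% at 1400 bp. At the centre of the window it was 74.3%. Enrichment, the shoulder divided by the flank, was 2.11 ± 0.20 (SD, n = 24) on the log2 scale in WT, against 1.79 ± 0.35 (SD, n = 6) in BM. It was lower in BM by a log2 difference of -0.33 (SE 0.11, exact permutation within time, p = 0.00141, adjusted p = 0.00845), below all WT libraries of its time at 4 of 6 times. The call was lost within the first set (log2 difference -0.26, exact permutation adjusted p = 0.0988) and without the BM library of ZT10 (log2 difference -0.26, exact permutation adjusted p = 0.0634). With the 5 series as the unit the exact permutation p for enrichment was 0.2, the smallest possible. Mean log2 enrichment was lower in BM in the other classes too. It went from 1.30 in WT to 0.83 in BM at gene bodies, from 1.45 to 1.05 beyond 10 kb and from 1.08 to 0.73 within 10 kb.

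A test at each position located this change of shape. Each profile was divided by its own window mean, and limma compared BM with WT over the positions of the TSS set and those of 3 other sets (gene bodies, beyond 10 kb, all peaks) with Benjamini-Hochberg adjustment. Of the TSS positions 98 were higher in BM (32.8% of them), where 47.2% of all 1196 positions were called higher, and 86 were lower (28.8%), where 29.7% of all were. The TSS positions that were higher lay at the ends of the window, from -1490 to -1030 bp, from 970 to 1160 bp and from 1200 to 1490 bp, with 1 more at -770 bp. The lower ones lay on the shoulders, from -400 to -390 bp, from -370 to -100 bp and from 90 to 640 bp, and the range on the right covered the step near 500 bp. The strongest loss among the shoulders was at 190 bp, a log2 difference of -0.11 (SE 0.03, limma adjusted p = 0.00275), and the strongest gain was at 1470 bp, 0.29 (SE 0.06, limma adjusted p = 0.000496).

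Between -90 and 80 bp, at the dip, no TSS position was called. All BM libraries were of 1 series, so these calls cannot tell the genotype apart from the series. The counts rested in part on single BM libraries: without the library of ZT22 there were 60 higher and 27 lower positions, and without that of ZT10 there were 64 and 40. Within the first set alone 72 were higher (24.1%, against 39.5% of all positions) and 24 lower (8.03%, against 21.2% of all). Neighbouring positions share fragments, and division by the window mean sets gains against losses, so the split depends on the scaling. On the authors' scale 100% of TSS positions were lower in BM (95.1% of all positions), and scaled to the flank 83.6% were lower (74.8% of all) and 0.669% higher (1% of all).

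**Figure D3:**
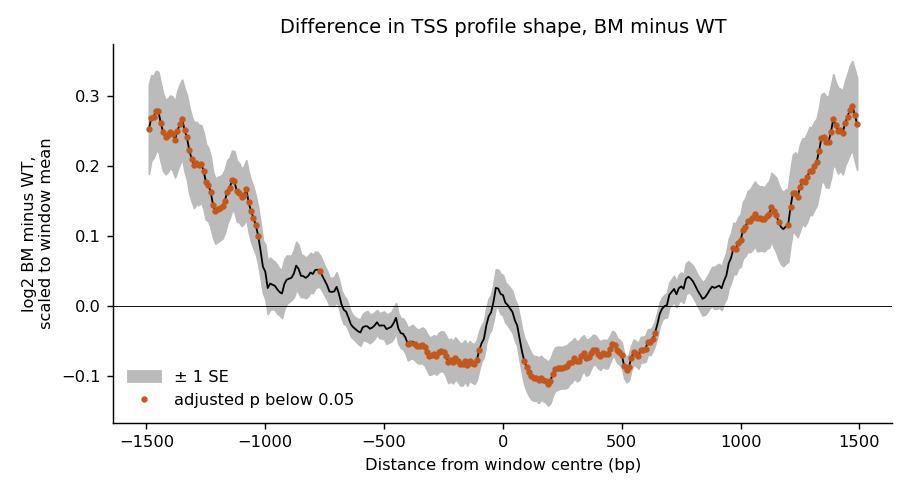
Log2 difference of BM minus WT at each TSS position (vertical axis) after each library was divided by its own window mean, against distance from the window centre in bp; the band is 1 SE either side and orange points have a limma adjusted p below 0.05. The 98 higher positions lie at the ends of the window and the 86 lower ones on the shoulders, with none called between -90 and 80 bp.

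The geometry of the TSS profile did not show a difference between the genotypes that passed the test with the flank subtracted, for any of the other 10 measures. The domain width differed by -23.7 bp (SE 12.5, exact permutation within time, adjusted p = 0.193), and without subtraction of the flank the sign turned, to 120.3 bp (adjusted p = 0.0140). Centre fill is the signal at the centre relative to the shoulder, so that a higher value is a shallower dip. It differed by 0.0126 (SE 0.0183, exact permutation within time, adjusted p = 0.418), and without subtraction of the flank by 0.0440 (exact permutation within time, adjusted p = 0.00269), which passed. The shoulder spacing differed by 16.2 bp (SE 11.3, exact permutation within time, adjusted p = 0.311) and by -0.833 bp within the first set. The right outer bump differed by -0.00263 (SE 0.0104, exact permutation within time, adjusted p = 0.737). The dip width was 7.71 bp larger in BM (SE 3.39, exact permutation within time, adjusted p = 0.193), and 2.02 bp larger within the first set. The side asymmetry differed by -0.03 on the log2 scale (SE 0.02, exact permutation within time, adjusted p = 0.193).

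Of the H2A.Z above flank over all peaks, the TSS peaks held a larger share in BM than in WT. They were 18.1% of the peaks with profiles and held 42.5% ± 3.30 (SD, n = 24) of the signal above flank of all peaks in WT. In BM they held 49.5% ± 3.62 (SD, n = 6). The share was higher in BM by 6.98 percentage points (SE 1.45, exact permutation within time, p = 0.000448), and by 5.49 points within the first set (exact permutation within time, p = 0.00137, the smallest possible). As all BM libraries were of series 5, an effect of the series on the share cannot be told apart from one of the genotype. Of the whole window signal, flank included, the TSS peaks held 28.3% ± 1.17 (SD, n = 24) in WT against 27.9% ± 2.35 (SD, n = 6) in BM, which differ by -0.456 points (SE 0.761, exact permutation within time, p = 0.412).

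Over the day, the depth of the dip at TSS peaks was the measure whose rhythm in WT passed the test after adjustment, out of 12. Centre fill is the signal within 30 bp of the centre over that of the shoulder, both above flank, so that a lower value is a deeper dip. It peaked at ZT17.3, with a cosinor amplitude of 0.0386 (SE 0.00939), in the test of the 24 WT libraries (permutation p = 0.00265, adjusted p = 0.0318). The mean over 4 libraries was 0.462 at ZT2, 0.435 at ZT6, 0.427 at ZT10, 0.514 at ZT14, 0.508 at ZT18 and 0.456 at ZT22. The dip was thus deepest on average at ZT10 and ZT6 and shallowest at ZT14 and ZT18, while ZT22, in the dark, was close to ZT2, in the light. Centre fill was lower at ZT6 than at ZT18 in 4 of 4 series. The exact permutation p of that contrast was 0.0286, the smallest that 4 against 4 libraries allow, with an adjusted p of 0.257. The call of the rhythm was lost within either set, as the amplitude was 0.0457 in the first (permutation adjusted p = 0.370) and 0.0365 in the second (permutation adjusted p = 0.147). It was also lost in 12 of the 28 fits that left out 1 library or 1 series, in which the amplitude ran from 0.0331 to 0.0437. Gene body peaks in WT had centre fill of 0.376, 0.401, 0.456 and 0.465 at ZT6 (series 11, 12, 25 and 26). At ZT18 they had 0.499, 0.646, 0.506 and 0.585. A rhythm at gene body peaks was not tested.

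The rhythm of the TSS domain width in WT did not pass the test after adjustment in the fit without a term for the series. The mean width was 1226 bp at ZT2, 1183 bp at ZT6, 1212 bp at ZT10, 1202 bp at ZT14, 1243 bp at ZT18 and 1247 bp at ZT22. At ZT6 the 4 libraries had 1187, 1133, 1174 and 1236 bp (series 11, 12, 25 and 26), and at ZT22 they had 1254, 1267, 1217 and 1249 bp. The lowest at ZT22 was under the highest at ZT6, so the groups overlap. The fitted peak was at ZT20.5 and the amplitude 27.7 bp (SE 8.93, permutation p = 0.0193, adjusted p = 0.0857). It was 47.3 bp in the first set (permutation p = 0.0369) and 8.75 bp in the second (permutation p = 0.634), and it passed without the library of ZT10 of series 11 (32.3 bp, permutation adjusted p = 0.0182) or of series 26 (31.3 bp, permutation adjusted p = 0.0328). With a replicate block for the series the amplitude of 27.7 bp passed (permutation adjusted p = 0.0327).

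None of the remaining measures of the TSS profile had a rhythm in WT that passed the test after adjustment in the fit without a term for the series. Log2 enrichment had an amplitude of 0.15 (SE 0.05, permutation p = 0.0262, adjusted p = 0.0857) with a fitted peak at ZT8.20, and it passed without the library of ZT10 of series 11 (0.19, permutation adjusted p = 0.00870). With a replicate block for the series it passed as well (permutation adjusted p = 0.0327). The left outer bump had an amplitude of 0.0163 (SE 0.00581, permutation p = 0.0286, adjusted p = 0.0857) with a fitted peak at ZT21.3, and it passed without the library of ZT10 of series 26 (0.0187, permutation adjusted p = 0.0328). The right outer bump had an amplitude of 0.0120 (SE 0.00449, permutation p = 0.0462, adjusted p = 0.111), with means of 0.0658 at ZT2 and 0.0338 at ZT14. The shoulder spacing had an amplitude of 6.67 bp (SE 8.58, permutation adjusted p = 0.745), and the side asymmetry one of 0.01 on the log2 scale (SE 0.01, permutation adjusted p = 0.382). At the level of single positions scaled to the window mean, limma without a term for the series called 0 TSS positions as rhythmic (0% of all 1196), with 45.8% of TSS positions at an unadjusted p under 0.05, close to the 42.1% of all positions. With a replicate block for the series it called 40.5% of TSS positions, where 45.2% of all were called. In the fit without a term for the series, the share called rose from 0% when some single libraries were left out. It was 59.9% without the ZT10 library of WT series 11, 20.4% without the ZT18 library of series 25 and 27.8% without the ZT22 library of series 25. It stayed at 0% without any other single library or series.

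In BM, with 1 library at each time, the domain width was 1227 bp at ZT2, 1178 bp at ZT6, 1141 bp at ZT10, 1205 bp at ZT14, 1194 bp at ZT18 and 1226 bp at ZT22. The amplitude of 34.8 bp (SE 13.6) had an exact permutation p of 0.167. Centre fill in BM was 0.527 at ZT2, 0.437 at ZT6, 0.374 at ZT10, 0.545 at ZT14, 0.489 at ZT18 and 0.507 at ZT22. Its amplitude was 0.0539 (SE 0.0360, exact permutation p = 0.483), against 0.0386 in WT. The dip width had an amplitude of 10.8 bp (SE 2.61) and peaked at ZT6.12 (exact permutation p = 0.0167, the smallest that 720 orders allow), which did not pass over the 12 measures (adjusted p = 0.20). No measure had a rhythm that differed between BM and WT by the test of the difference itself (exact permutation within time, adjusted p from 0.904 to 0.928), which does not show that the rhythms were alike.

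**Figure D4:**
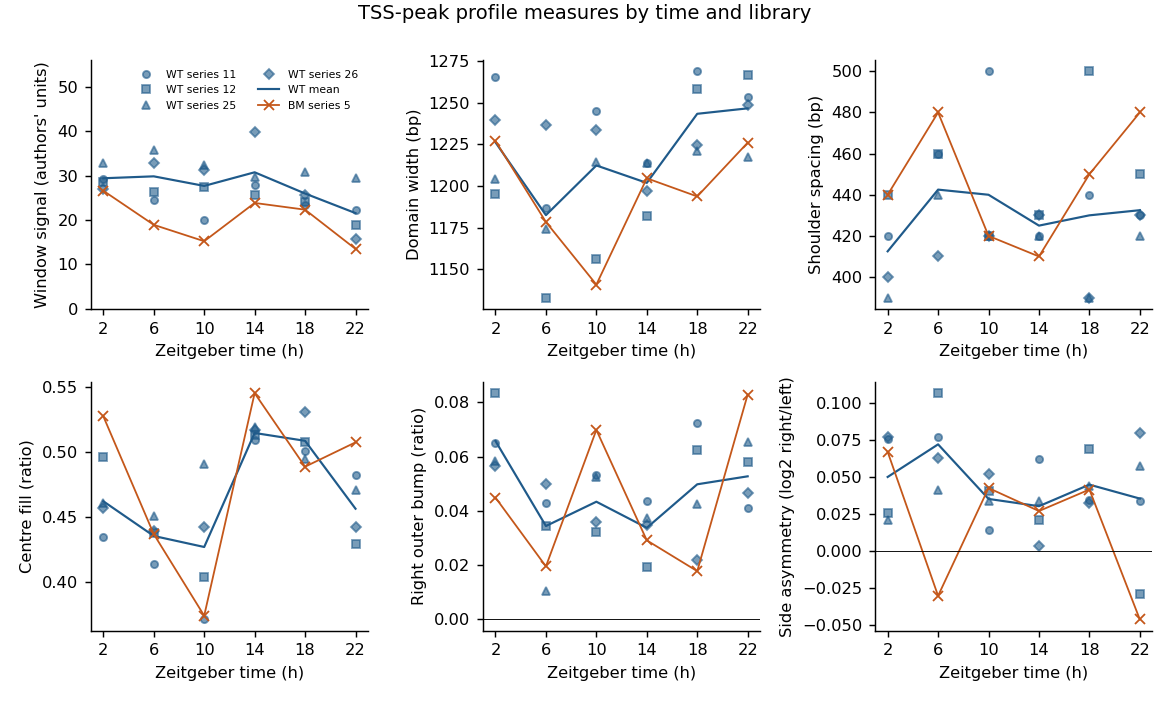
Values of 6 measures of the TSS profile for each library (vertical axes, units on each panel) against zeitgeber time in h; blue symbols are the 4 WT series with their mean as a line, and orange crosses the BM series. The BM window signal lies below all 4 WT libraries at each of 6 times, the right outer bump lies above 0 in 24 of 24 WT and 6 of 6 BM libraries, and WT centre fill is 0.435 on average at ZT6 and 0.508 at ZT18.

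The TSS peaks themselves had a median width close to that of the whole list. Their median width was 300 bp, with an upper quartile of 370 bp and a range of 130 to 719 bp, against a median of 309 bp over the list. Peaks of 500 bp or wider were 17 of the 583 (2.92%), against 3.89% of all peaks. The widest peak of the list, 719 bp, was a TSS peak. The width of a peak is the authors' call at a site of factor binding, and the H2A.Z domain around it is a different quantity.

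TSS peaks stood slightly towards the front of the list, whose order is the number in each peak's name. What the authors ordered by is not given in the sources used here, but width fell along the list, with Spearman's rho between width and rank of -0.50 over the 583 TSS peaks and -0.52 over all peaks, as a description across peaks. The median rank of a TSS peak was 1507, against 1609 for the list. When the list was divided into 10 equal runs, they made up 23.3% of the first run (75 of 322 peaks) and between 14.9% and 20.5% of each other run. They were 22 of the first 100 peaks. The median width was 399 bp in the first run, for TSS peaks and for all peaks, and 334.5 bp for TSS peaks and 349 bp for all peaks in the next.

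**Figure D5:**
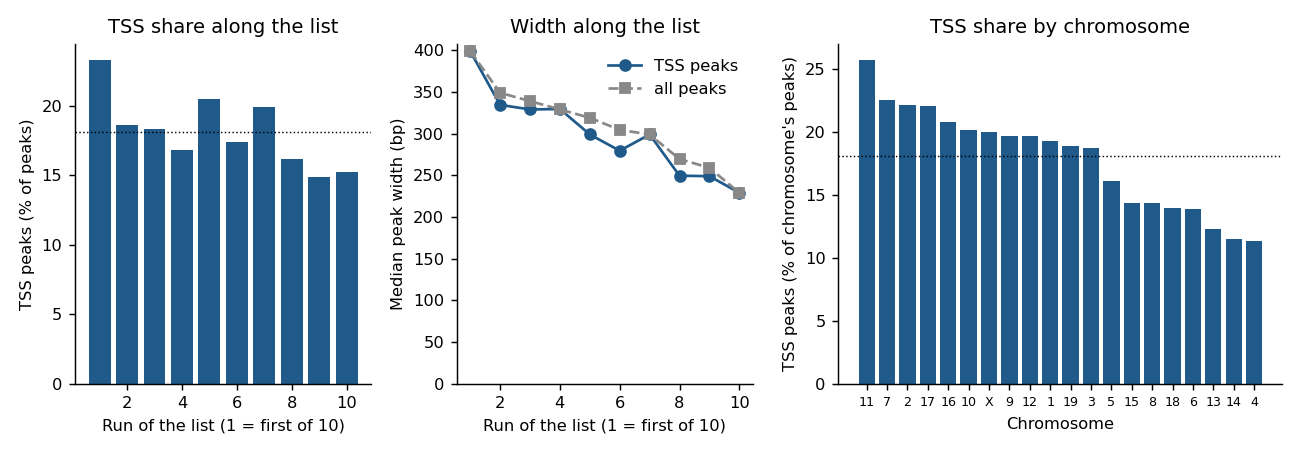
Left, TSS peaks as a percentage of each of 10 equal runs of the peak list, with a dotted line at their 18.1% of the whole list; middle, median peak width in bp of TSS peaks and of all peaks along these runs; right, TSS peaks as a percentage of the peaks on each chromosome, with the same dotted line. The share is 23.3% in the first run and runs from 25.7% on chromosome 11 to 11.3% on chromosome 4.

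The 10 TSS peaks nearest the front of the list lie on 8 chromosomes of mouse build mm9, the files' build. The first of the whole list is at chr7:52960041-52960760. The next are rank 4 at chr3:95686051-95686501, rank 6 at chr5:149806621-149807270 and rank 7 at chr11:98636531-98636831. Rank 13 is at chr1:93355801-93356370, rank 21 at chr9:42280221-42280511 and rank 27 at chr2:92274221-92274700. Rank 33 is at chr5:138696461-138696881, rank 38 at chr11:98636841-98637181 and rank 42 at chr19:42203511-42204170. Their widths run from 290 to 719 bp, and the peaks of rank 7 and 38 on chromosome 11 are neighbours at 1 site. The list pairs no peak with a gene, and no gene is named here.

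TSS peaks were spread over 20 chromosomes, in unequal shares. Chromosome 11 had the most, 64 or 25.7% of the peaks there, followed by chromosome 7 with 51 (22.6%). The lowest shares were on chromosome 4, with 26 (11.3%), and chromosome 14, with 13 (11.5%). Chromosome X had 2 TSS peaks among 10.

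Some TSS windows covered more than 1 peak. Of the 583 windows 19.4% overlapped the window of another peak, against 19.6% over the list. Another TSS window was overlapped by 71 of them (12.2%), where 3.85% of all peaks overlapped the window of another peak that was a TSS peak. For the 71, the nearest TSS peak lay at 15 to 1910 bp, with a median of 330 bp, centre to centre. For these windows the same nucleosomes enter the averaged profile more than once. The median distance from a TSS peak to its nearest peak of any class was 58150 bp, against 44505 bp over the list.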

How the data were processed

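H2A.Z chromatin immunoprecipitation was sequenced in mouse liver. Values are the deposited signal, averaged by the authors over each class of CLOCK:BMAL1 peaks in scaled units of their own. Per the submitters' processing notes the build was mm9 and the tools were CASAVA 1.7 and Bowtie; the Bowtie version, the scaling and the peak caller are not given in the sources used here. Depth is therefore unknown, and no interval for counting error is given. A step of 10 bp was inferred from the 3 kb window. Profiles were used for 30 of 36 samples, and the 6 of the other BM series were not analysed here. The labels do not say which libraries came from separate animals, so p-values measure the spread between these libraries.

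Maxima and edges were read after smoothing over 5 positions. The 12 measures were compared by exact permutation of genotype within time (15625 assignments), by 24 h cosinor fits with 100000 permutations of time, and by permuted signs for differences within a library, with Benjamini-Hochberg adjustment over the measures (36 class comparisons in WT, 35 in BM, 48 tests against 0). Positions were tested with limma 3.58.1 in R 4.3.3, and other steps ran in Python 3.11.15 with numpy 2.4.6. The scripts were tested on simulated data. Peaks named are the 10 TSS peaks highest in the list. The list of peaks holds 1 more than the profiles cover, in the class within 10 kb of a gene. The members, measures and lists were chosen with earlier results of these data known. Alternatives covered the flank, smoothing, sets of samples, scaling, blocks by series and each left-out library, series or time. No genome of build mm9 was used here, so no sequence is printed.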

Additional observations from a re-analysis of the deposited data

Results flagged for a closer look

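In WT at ZT10, series 11 had a TSS shoulder spacing of 500 bp, far from the 420 bp of each of the other 3 libraries. Of 72 groups of 4 libraries and measures checked it was the 1 found, and chance alone gives about 1 in 20. As the other 3 libraries were equal, the rule would have flagged any gap. The value is not the only one of its size, as WT series 12 at ZT18 also had 500 bp.

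The contrast of TSS peaks with other classes changed between the genotypes in 4 cases, by the exact permutation test within time on the difference within a library. Here too genotype and BM series cannot be told apart. For centre fill (the centre relative to the shoulder, both above flank) TSS minus gene body moved from -0.0260 in WT to -0.146 in BM, by -0.120 (SE 0.0306, adjusted p = 0.00224). Against peaks beyond 10 kb the move was from -0.0536 to -0.167, by -0.114 (SE 0.0406, adjusted p = 0.00523). Against peaks within 10 kb it was from 0.0613 to -0.116, by -0.177 (SE 0.0567, adjusted p = 0.00336). Centre fill itself went from 0.467 to 0.480 at TSS peaks, from 0.493 to 0.626 at gene bodies, from 0.521 to 0.647 beyond 10 kb and from 0.406 to 0.596 within 10 kb. Log2 enrichment, which was lower in BM, moved with it, from 2.11 to 1.79 at TSS peaks and from 1.30 to 0.83 at gene bodies, and its part in the result was not tested.

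The TSS domain was wider than that of gene bodies by 428 bp in WT and by 387 bp in BM, a change of -40.8 bp (SE 19.4, exact permutation within time, adjusted p = 0.0381). The call was lost in the first set and without any 1 of 10 libraries, and the change was -23.5 bp without the BM library of ZT10.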

How the results depend on the processing

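Leaving out 1 library or series counted as no change in 1333 of 1370 fits over 46 results. That count includes results that were not called at first and stayed uncalled. It also includes percentages of positions, which were judged by size without a test. The call was lost in 12 of 28 fits for the amplitude of WT centre fill and in 10 of 30 for the change of TSS minus gene body width. The window and share differences between genotypes kept their calls in all left-out fits, from -0.53 to -0.39 (log2) and from 5.98 to 7.90 points. Without single libraries or series, the amplitude of WT centre fill ran from 0.0331 to 0.0437, that of domain width from 14.6 to 36.3 bp, the BM minus WT right outer bump from -0.00918 to 0.00325 (above 0 without the BM library of ZT2, 0.00102, or of ZT18), and the change of TSS minus gene body width from -50.6 to -23.5 bp. The share of TSS positions higher in BM ran from 20.1% to 35.5%, lower from 9.03% to 30.1%, and rhythmic in WT from 0% to 59.9%. The dip width was called wider in BM without WT series 12 (10.4 bp).

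By setting, the first set alone gave BM minus WT spacing of -0.833 bp, a width change of -33.9 bp, 8.03% of TSS positions lower (24.1% higher; 21.2% and 39.5% of all positions) and a centre fill amplitude of 0.0457 (0.0365 in the second set), with neither amplitude called. No subtraction of the flank gave BM minus WT domain width of 120.3 bp and centre fill of 0.0440, both called. Scaling to the flank gave 0.669% of TSS positions higher and 83.6% lower (1% and 74.8% of all), and the authors' scale 0% and 100%. A flank of 50 positions gave a centre fill amplitude of 0.0399, not called. The amplitude was not called without ZT6 (0.0426), ZT14 (0.0312), ZT18 (0.0365) or ZT22 (0.0466). Without ZT10 amplitudes were called for window signal (0.27), enrichment (0.21), domain width (39.8 bp) and the right (0.0169) and left (0.0215) outer bumps. Outer windows mirrored about -20 bp gave a BM minus WT left outer bump of -0.00236. That setting, and leaving out libraries in the fit by position, were chosen after seeing the data. The causes were not tested.

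Series numbers were not taken to pair the samples, since the correlation of deviations was over 0.1 in 31 of 60 pairs of libraries of a series and not in all. Its median was 0.51 in series 11, -0.08 in series 12, 0.78 in series 25 and -0.23 in series 26, so some series may share a deviation, and 10 of 24 WT libraries correlated best with their own series. The correlation runs over positions, so it cannot see a level that the libraries of a series share, and it does not decide whether series pair the samples. The mean window signal was 24.5 in WT series 11, 25.1 in series 12, 31.8 in series 25 and 28.7 in series 26. With the replicate block the amplitudes of domain width (27.7 bp) and log2 enrichment (0.15, adjusted p = 0.0327 each) were called in WT, as were 40.5% of TSS positions (45.2% of all), against 0 without it, and as series means the window difference of -0.47 had a p of 0.2. Depth is unknown, so counting error could not be set beside any value.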
